A study of Homo sapiens with 5 samples.

Results

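Cadherin and protocadherin genes were followed through 4 lists of peaks from A549, an established human lung adenocarcinoma line of epithelial origin. A peak was counted when the gene name its authors gave it began with CDH or PCDH followed by a letter or digit, leaving out the CDHR family. This gave 452 peaks at 47 gene names, out of 63391 peaks in all. The study immunoprecipitated chromatin with antibodies to FOXM1, a cell cycle transcription factor of the forkhead family, and to LC3, a ubiquitin-like protein of autophagosomes. It also sequenced DNA without an antibody from extracellular vesicles (evDNA). The groups were FOXM1 ChIP and LC3 ChIP from untreated cells grown with 10% fetal bovine serum, EBSS evDNA from cells kept 3 days in EBSS (Earle's balanced salt solution, which holds no amino acids), and control evDNA from untreated cells, with serum-free medium given for vesicle collection. The title names FOXM1 as a factor that specifies chromatin DNA for vesicles, so the lists were compared at the same genes. Each group had 1 library of 1 cell line, so no difference between conditions could be tested against replicate error, and every comparison below describes these lists. Peak lists hold no expression: of the epithelial markers KRT8, KRT18, EPCAM and CDH1, the lists can show only where peaks lay.

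Cadherins are transmembrane proteins whose repeated outer domains bind calcium and hold neighbouring cells together. The classical members are tied to actin inside the cell through beta-catenin, p120-catenin and alpha-catenin. Epithelial cells carry mainly E-cadherin (CDH1), mesenchymal and neural cells N-cadherin (CDH2), and most type II cadherins and protocadherins are best known from the nervous system, where the clustered protocadherins give neurons distinct surface identities.

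Some promoters were touched by a peak, although most cadherin peaks lay elsewhere. Of the member genes, 79 had a promoter in the RefSeq table (99 promoters of 35116, GRCh38.p14, the same assembly as the authors' hg38). A peak touched 7 promoter windows, the 250 bases before a start. The same count over all promoters was not made, so 7 cannot be called few or many. The 4 sequences below are windows before the outermost start of their gene, read 5′ to 3′ on the gene's strand, with the bases inside the peak in capitals. CDH9, a type II cadherin of neurons, is shown because its promoter peak was the one of these 4 with q of at most 0.05 (control evDNA, chr5:27038587-27038836, minus strand). CDH12, another neuronal type II cadherin, had a control evDNA peak over 113 of the 250 bases (chr5:22853345-22853594, minus strand). PCDH15, a protocadherin of the tip links of inner ear hair cells, had an EBSS evDNA peak over 246 of them (chr10:55627943-55628192, minus strand). CDH23, its partner in the tip link, had an LC3 peak over 160 of them (chr10:71396670-71396919, plus strand).
CDH9: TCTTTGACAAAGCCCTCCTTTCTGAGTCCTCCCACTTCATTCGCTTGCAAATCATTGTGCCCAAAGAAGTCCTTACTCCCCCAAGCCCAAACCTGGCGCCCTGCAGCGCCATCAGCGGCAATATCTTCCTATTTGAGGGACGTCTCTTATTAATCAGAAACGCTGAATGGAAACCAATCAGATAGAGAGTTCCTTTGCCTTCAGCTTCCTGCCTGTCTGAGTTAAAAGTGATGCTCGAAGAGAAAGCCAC
CDH12: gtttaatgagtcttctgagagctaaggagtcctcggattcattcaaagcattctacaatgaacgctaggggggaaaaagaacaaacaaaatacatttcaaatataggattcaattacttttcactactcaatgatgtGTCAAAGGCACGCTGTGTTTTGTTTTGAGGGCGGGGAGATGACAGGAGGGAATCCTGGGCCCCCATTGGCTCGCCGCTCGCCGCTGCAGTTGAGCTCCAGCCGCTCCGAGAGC
PCDH15: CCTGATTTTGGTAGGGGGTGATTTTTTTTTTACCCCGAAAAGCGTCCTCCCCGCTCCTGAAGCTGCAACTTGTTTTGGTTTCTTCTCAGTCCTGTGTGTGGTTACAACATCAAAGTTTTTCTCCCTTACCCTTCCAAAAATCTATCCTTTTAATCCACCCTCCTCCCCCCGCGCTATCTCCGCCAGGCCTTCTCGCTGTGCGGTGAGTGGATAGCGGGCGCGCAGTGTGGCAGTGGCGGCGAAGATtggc
CDH23: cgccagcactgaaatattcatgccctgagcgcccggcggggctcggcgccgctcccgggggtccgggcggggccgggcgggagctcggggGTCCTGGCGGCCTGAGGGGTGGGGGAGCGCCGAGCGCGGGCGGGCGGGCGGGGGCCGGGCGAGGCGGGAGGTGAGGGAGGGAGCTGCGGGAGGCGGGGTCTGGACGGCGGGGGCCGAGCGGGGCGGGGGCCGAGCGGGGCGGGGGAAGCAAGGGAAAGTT
The GC content of these windows was 48.4% for CDH9, 48.0% for CDH12, 52.8% for PCDH15 and 80.8% for CDH23. The median over member promoters was 44.8%, and 58.0% over all promoters. The forkhead motif TGTTTAC and the E-box CACCTG, which do not overlap each other, were searched on both strands, and neither was found in any of the 7 windows, which include those of CDH7 and of internal starts of CDH18 and CDH12, not shown. None of the 7 lay under a FOXM1 peak, and CDH1 was not among the promoters searched. TGTTTAC stood in 2 member promoters (2.02%), against 2.98% of all promoters, and CACCTG in 8 (8.08%), against 17.5% of all promoters. A missing match says only that these letters were not in the window.

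The 452 peaks were spread unevenly over the lists. The FOXM1 list held 35 of them (0.313% of its 11195 peaks, exact Clopper-Pearson 95% interval 0.218% to 0.435%), the LC3 list 19 (0.244% of 7801, 0.147% to 0.380%), the EBSS evDNA list 127 (0.825% of 15402, 0.688% to 0.980%) and the control evDNA list 271 (0.935% of 28993, 0.827% to 1.05%). Both vesicle lists thus held a larger share of cadherin peaks than both ChIP lists, and the intervals of the 2 kinds of list did not meet. Outside chromosome 5 both vesicle shares stayed above both ChIP shares, but the separation of the intervals ended. The shares were 0.129% in FOXM1 (0.0685% to 0.220%), 0.224% in LC3 (0.128% to 0.363%), 0.331% in EBSS evDNA (0.241% to 0.442%) and 0.231% in control evDNA (0.175% to 0.299%). The LC3 interval met those of both vesicle lists, and the FOXM1 interval met that of control evDNA but not that of EBSS evDNA. The order of the shares itself ended among peaks with q of at most 0.05. There the share was 0.452% in FOXM1 (1 member peak), 0% in LC3, 0.199% in EBSS evDNA and 1.43% in control evDNA. These intervals cover counting error only. Of the 89 protein-coding cadherin and protocadherin genes of RefSeq, 12 had a FOXM1 peak (13.5%), 12 an LC3 peak (13.5%), 25 an EBSS evDNA peak (28.1%) and 31 a control evDNA peak (34.8%). Over all 20037 protein-coding genes the shares were 11.5%, 14.3%, 20.0% and 27.1% in the same order of lists. Read totals are unknown, but the depth estimated from the lists was 0.479 (FOXM1), 0.762 (LC3) and 1.01 (EBSS evDNA) relative to 1 in control evDNA. How far these depths set the counts was not tested.

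Most peaks were weak. The authors' fold is the number of fragments at the summit over the local background, with 1 added to both. Its median over member peaks was 2.89 in FOXM1, 3.04 in LC3, 2.69 in EBSS evDNA and 2.98 in control evDNA, against 2.89, 3.02, 2.79 and 2.84 over all peaks of each list. In the FOXM1 list, CDH1 stood alone at fold 13.99 with 65 fragments. Each of the other 34 FOXM1 member peaks rested on 4 to 8 fragments, with 11 peaks at 4 fragments, 12 at 5, 6 at 6, 4 at 7 and 1 at 8, and 32 of all 35 had the lowest background of any member, 1.08 fragments. LC3 peaks held 7 to 11 fragments, EBSS evDNA peaks 6 to 16 and control evDNA peaks 6 to 17.

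Few peaks passed a q-value of 0.05, the authors' own correction for the number of places tested. In FOXM1 it was 1 of 35 (2.86%), against 1.97% of all peaks in the list. In LC3 it was 0 of 19, which allows up to 17.6%, against 3.78% of all peaks. In EBSS evDNA it was 3 of 127 (2.36%, 0.490% to 6.75%), against 9.77% of all peaks. In control evDNA it was 55 of 271 (20.3%, 15.7% to 25.6%), against 13.3% of all peaks. Cadherin peaks in EBSS evDNA thus passed at a share below that of their list, and those in control evDNA at a share above it. The 3 EBSS evDNA peaks lay at CDH8, CDH12P2 and CDH12, with folds of 4.20, 4.19 and 3.24. The 55 control peaks lay at 11 gene names: 21 at CDH18, 11 at CDH12, 8 at CDH9, 4 at CDH8, 3 at CDH18-AS1, 2 each at CDH2 and CDH6, and 1 each at CDH11, CDH19, CDH20 and PCDH15. Of them, 37 were intronic, 13 intergenic and 45 on chromosome 5, with folds of 3.02 to 4.81.

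**Figure D1:**
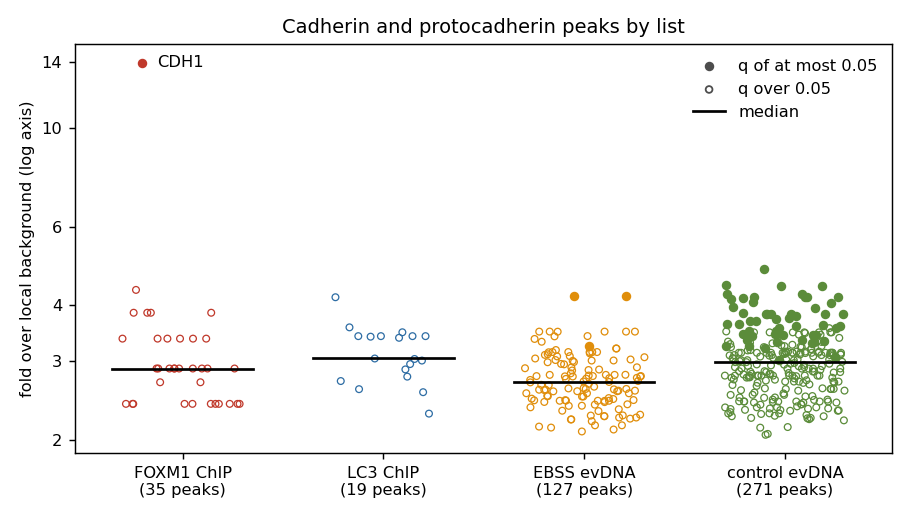
Fold over the local background (vertical log axis) of every cadherin and protocadherin peak, 1 point per peak, by list; filled points have q of at most 0.05 and bars are medians. CDH1 in FOXM1 ChIP stands at 13.99, and no other peak exceeds 4.81; filled points number 1, 0, 3 and 55 from left to right.

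By annotation, cadherin peaks were mostly intronic in FOXM1 and both vesicle lists. Introns held 65.7% of them in FOXM1, 42.1% in LC3, 61.4% in EBSS evDNA and 63.1% in control evDNA, against 39.3%, 29.1%, 38.01% and 39.7% of all peaks. Intergenic places held 22.9%, 5.26%, 26.8% and 25.8% of member peaks in the same order, against 43.1%, 29.3%, 38.6% and 38.6% of all peaks. The intronic share of members was above that of the list, with an interval that began above the list's value, in FOXM1, EBSS evDNA and control evDNA, and the LC3 interval, 20.3% to 66.5%, held the list's value. The intergenic share of members was below that of the list in all 4, with every interval ending below the list's value. Near a transcription start site (TSS), at 1 kb or less, lay 2 of 35 FOXM1 peaks (5.71%; 6.1% of all peaks), 5 of 19 LC3 peaks (26.3%, 9.15% to 51.2%; 28.5% of all peaks), 4 of 127 EBSS evDNA peaks (3.15%, 0.865% to 7.87%; 9.39% of all peaks) and 15 of 271 control evDNA peaks (5.54%, 3.13% to 8.96%; 9.28% of all peaks). In both ChIP lists the member share was near that of the list, and in both vesicle lists it was below it, with an interval that ended below the list's value. Within 3 kb of a TSS the LC3 share was 52.6% (10 of 19 peaks), against 38.1% of all LC3 peaks. The median distance to the nearest TSS was 36.4 kb in FOXM1, 2.87 kb in LC3, 29.1 kb in EBSS evDNA and 37.8 kb in control evDNA, against 23.3, 7.52, 14.4 and 16.2 kb over all peaks.

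**Figure D2:**
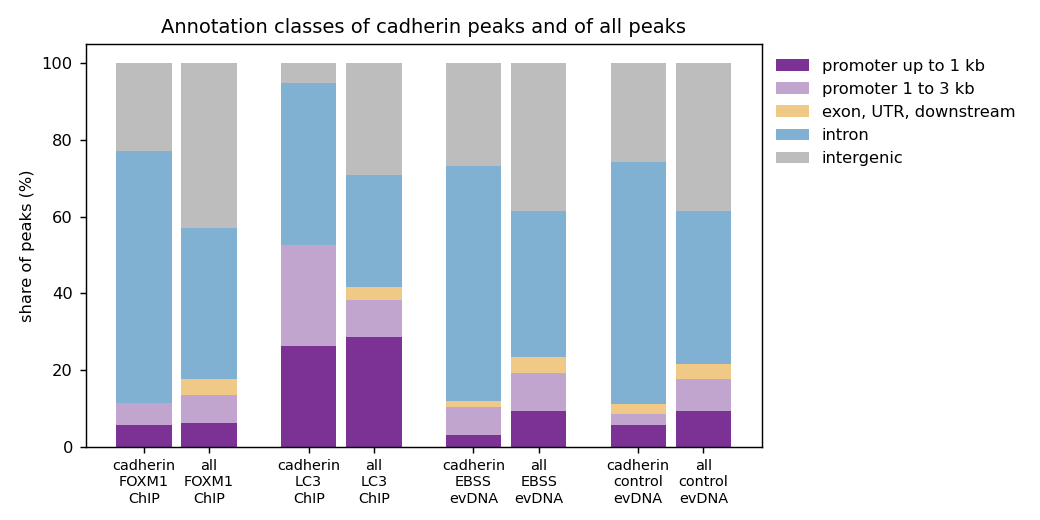
Share of peaks (vertical axis, percent) in each annotation class, for cadherin and protocadherin peaks and, beside them, for all peaks of the same list. Introns hold 61.4% to 65.7% of cadherin peaks in FOXM1 and both vesicle lists, and promoters up to 1 kb hold 26.3% in LC3 ChIP.

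E-cadherin (CDH1), the main adhesion protein of epithelial junctions, had 1 peak in the FOXM1 list and no assigned peak in LC3, EBSS evDNA or control evDNA. The FOXM1 peak (chr16:68735589-68737418, hg38) ran from 1703 bp before the gene's start to 126 bp after it. With 1830 bp it was far wider than the list's median of 321 bp, and 4 of the 11195 FOXM1 peaks were as wide or wider, itself included. It had 2 summits, 725 and 337 bp before the start, with folds of 13.99 and 10.4 and −log10 q of 50.9 and 34.6. Its fold ranked 12th in the list and 8th among 683 peaks within 1 kb of a TSS. Its local background was also high, 3.72 fragments against a list median of 1.08, a level that 93 peaks reached. The part of that background in the peak was not tested. One EBSS evDNA peak of fold 2.17 lay inside the CDH1 body, assigned by the authors to the pseudogene FTLP14. CDH3, the P-cadherin gene next to CDH1 on chromosome 16, had no peak in any list.

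N-cadherin (CDH2), the classical cadherin of mesenchymal and neural cells, had peaks in all 4 lists but none within 1 kb of a TSS. FOXM1 had 1, intergenic and 156664 bp before the nearest TSS, with 4 fragments, a fold of 2.41 and a −log10 q of 0. LC3 had 1, placed 1160 bp after a TSS (chr18:28175706-28176286), with 7 fragments and a fold of 3.03. The 5 EBSS evDNA peaks were all intergenic, 17444 to 155193 bp before the TSS, with folds of 2.40 to 3.49, and none passed q of 0.05. Of the 8 control evDNA peaks, 5 were intergenic, 2 intronic and 1 lay 1695 bp from a TSS. Their folds ran from 2.78 to 3.83, and 2, both intergenic, passed q of 0.05. The EBSS and control lists shared 1 CDH2 place, at chr18:28325474-28325850 in EBSS evDNA, with folds of 2.45 and 2.78. Inside the gene body itself there were 0 peaks of FOXM1, 1 of LC3, 0 of EBSS evDNA and 5 of control evDNA, so the CDH2 peaks of FOXM1 and EBSS evDNA lay in the desert beyond its start.

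The remaining type I cadherins appeared in few lists. CDH4, retinal cadherin, had 3 LC3 peaks, 5 EBSS evDNA peaks and 1 control evDNA peak, and none in FOXM1. Its LC3 peak at 291 bp after the TSS (chr20:61252717-61253189) had the highest LC3 fold of the family, 4.17 with 10 fragments and a −log10 q of 1.22, short of the 1.30 that q of 0.05 needs. A second LC3 peak of fold 3.41 lay 931 bp after the same TSS. The EBSS evDNA peaks of CDH4 had folds of 2.27 to 2.61 and its control peak 2.70. CDH15, the muscle cadherin, had 1 intronic LC3 peak of fold 3.04.

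Type II cadherins carried most peaks of FOXM1 and of both vesicle lists. They held 22 of 35 FOXM1 peaks (62.9%), 3 of 19 LC3 peaks (15.8%), 82 of 127 EBSS evDNA peaks (64.6%) and 222 of 271 control evDNA peaks (81.9%). The leading genes, CDH18, CDH12 and CDH9, lie on the short arm of chromosome 5 and are best known from the brain. CDH18 had 12 FOXM1 peaks, no LC3 peak, 34 in EBSS evDNA and 75 in control evDNA. CDH12 had 3, 1, 14 and 55 in the same order, and CDH9 had 1, 0, 12 and 49. Their folds stayed within the range of the lists: CDH18 peaks had medians of 2.89 in FOXM1, 2.57 in EBSS evDNA and 2.97 in control evDNA. The highest CDH18 folds were 3.85 in FOXM1, 3.41 in EBSS evDNA and 4.45 in control evDNA. For CDH12 the highest folds were 2.89 in FOXM1, 3.41 in LC3, 3.49 in EBSS evDNA and 4.18 in control evDNA. For CDH9 they were 3.37 in FOXM1, 3.20 in EBSS evDNA and 4.24 in control evDNA. Most CDH18 peaks were intronic, 8 of 12, 29 of 34 and 61 of 75 in FOXM1, EBSS evDNA and control evDNA, whereas 24 of the 49 control peaks of CDH9 were intergenic. CDH18-AS1, an antisense RNA gene in the CDH18 locus, had 2 FOXM1, 4 EBSS evDNA and 10 control evDNA peaks. DNA peaks carry no strand, so those of overlapping sense and antisense genes cannot be told apart beyond the authors' choice of nearest gene.

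Neighbouring genes on the same arm had fewer peaks. CDH10 had 1 EBSS evDNA peak and 2 control evDNA peaks, with folds of 2.75 to 2.98. CDH6, a type II cadherin of kidney and brain, had 1 FOXM1 peak of fold 2.41, 4 EBSS evDNA peaks of 2.47 to 2.91 and 10 control evDNA peaks of 2.05 to 3.46, of which 2 control peaks lay within 1 kb of its TSS.

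The stretch of chromosome 5 from 15 to 30 Mb, which holds CDH18, CDH12, CDH10 and CDH9, was dense in peaks as a whole. It held 8.20 FOXM1, 1.33 LC3, 25.1 EBSS evDNA and 73.9 control evDNA peaks per Mb, against 5.56, 3.65, 7.15 and 13.8 per Mb from 50 Mb to the end of the chromosome. FOXM1 and both vesicle lists were denser in the stretch, and LC3 was sparser there. Other parts of the short arm were dense in vesicle peaks too. Steps of 5 Mb from 0 to 15 Mb and from 30 to 45 Mb held 10.6 to 21 EBSS evDNA and 21.6 to 68.8 control evDNA peaks per Mb. In FOXM1 they held 5.8 to 8 and in LC3 3.2 to 6.6. Cadherin genes were given 18 of its 123 FOXM1 peaks (14.6%), 1 of 20 LC3 peaks (5.00%), 65 of 376 EBSS evDNA peaks (17.3%) and 191 of 1109 control evDNA peaks (17.2%). The local background moved with the peaks in vesicle DNA. Its median in the stretch was 3.64 fragments in EBSS evDNA and 3.05 in control evDNA, against 2.07 and 1.99 outside chromosome 5. In FOXM1 and LC3 the medians were 1.08 and 1.96 both in the stretch and outside chromosome 5. The part of the background in the number of peaks was not tested. Within the stretch, cadherin peaks had a median fold of 2.69 in EBSS evDNA and 2.96 in control evDNA, against 2.66 and 2.87 for peaks given to other genes. In control evDNA 22.5% of the cadherin peaks passed q of 0.05 (43 of 191, 16.8% to 29.1%), against 22.98% of the others. In EBSS evDNA 1.54% passed (1 of 65, 0.0389% to 8.28%), against 8.68% of the others. In control evDNA, then, cadherin peaks and their neighbours in the same stretch passed at nearly the same share.

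**Figure D3:**
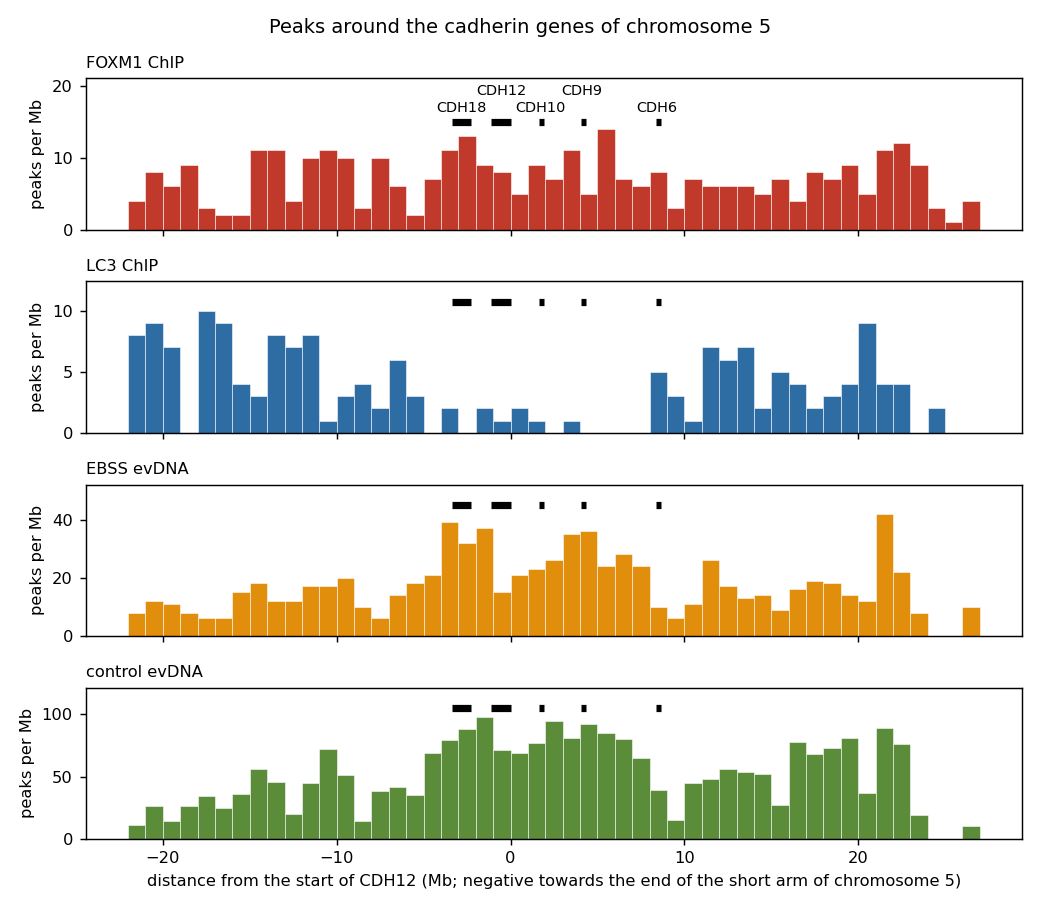
Peaks per Mb (vertical axes, a scale for each list) in steps of 1 Mb along chromosome 5 around the start of CDH12; black bars mark the bodies of CDH18, CDH12, CDH10, CDH9 and CDH6. Control evDNA reaches 98 peaks in the step beside CDH12 and LC3 ChIP has at most 2 in each step from CDH18 to CDH9.

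Peaks were also counted by position in each gene body. The authors gave a peak to the gene with the nearest TSS, so part of the peaks inside cadherin bodies carried other names. Of 61 FOXM1 peaks in member bodies, 37 had been given to other genes, as had 10 of 27 LC3, 43 of 132 EBSS evDNA and 104 of 293 control evDNA peaks. The body of CDH18 held 97 control peaks, or 87.8 per Mb (exact Poisson 95% interval 71.2 to 107), against 76.5 per Mb in the 2 Mb on both sides. CDH12 held 72.6 per Mb (57.5 to 90.3), against 82.0 beside it, and CDH10 57.0 (26.1 to 108), against 81.8. CDH9 held 120 per Mb (72.4 to 188), against 88.0, and CDH6 66.4 (30.4 to 126), against 46.8. All 5 flank values lay inside the interval of the gene. In EBSS evDNA the CDH18 body held 38.03 per Mb (27.4 to 51.4), against 27.8 beside it, and CDH12 20.0 (12.5 to 30.2), against 28. In FOXM1 the values were 12.7 (6.93 to 21.3) for CDH18, against 9, and 9.07 (4.35 to 16.7) for CDH12, against 8.50. LC3 had 0 peaks in the CDH18 body, which allows up to 3.34 per Mb, against 1.75 beside it. The flank values of CDH18, CDH12, CDH9 and CDH6 lay inside the interval of the gene in EBSS evDNA and FOXM1 too. For CDH18 in EBSS evDNA this was so only narrowly. CDH10 held 0 EBSS evDNA peaks, which allows up to 23.4 per Mb, below its flank of 26.25, while its FOXM1 flank lay inside the interval. Flanks were not cleared of other cadherin genes, and those of CDH18 and CDH12 each take in part of the other's body. At this depth neither the CDH18 nor the CDH12 body could be told from these flanks.

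Away from chromosome 5, member bodies were no denser in control evDNA peaks than other genes. Member bodies on all chromosomes held 5.25 FOXM1, 2.32 LC3, 11.3 EBSS evDNA and 25.2 control evDNA peaks per Mb, against 3.38, 3.20, 5.05 and 9.42 over all protein-coding gene bodies. Without chromosome 5, member bodies held 3.78 (2.59 to 5.34), 2.96 (1.91 to 4.36), 6.27 (4.69 to 8.20) and 7.69 (5.93 to 9.80) per Mb, against 3.28, 3.10, 4.81 and 8.68 over all gene bodies outside it. There the value over all genes lay inside the member interval in all 4 lists, near its lower end in EBSS evDNA. The 5 member bodies over 0.5 Mb outside chromosome 5 held 4.21 (2.67 to 6.32), 2.56 (1.40 to 4.30), 6.60 (4.62 to 9.13) and 6.05 (4.16 to 8.49) peaks per Mb, against 5.36, 2.35, 4.35 and 8.35 over the 291 other bodies of that length outside it. In EBSS evDNA this interval lay above the value of the other long bodies, and in the other lists it held that value. Chromosome 5 held 62.9% of the FOXM1, 15.8% of the LC3, 64.6% of the EBSS evDNA and 79.0% of the control evDNA member peaks, against 9.66%, 8.41%, 11.6% and 14.97% of all peaks.

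**Figure D4:**
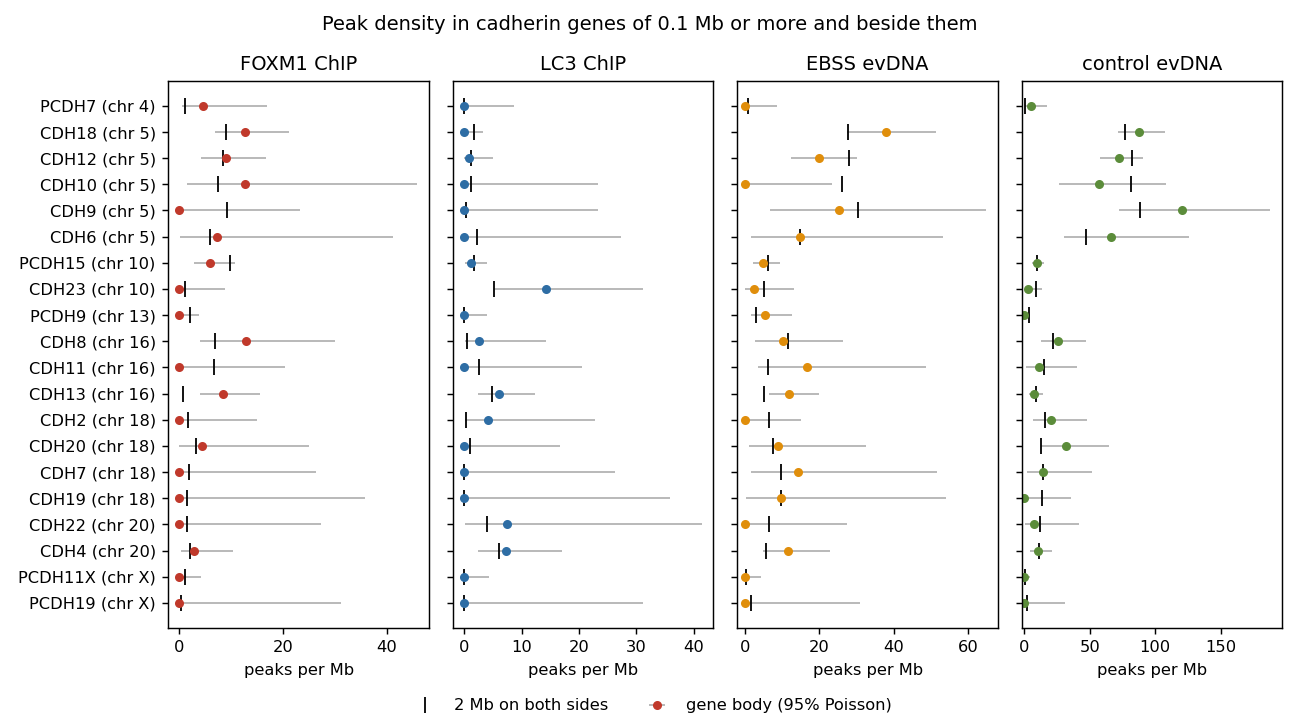
Peaks per Mb (horizontal axes, a scale for each list) in the bodies of cadherin and protocadherin genes of at least 0.1 Mb; points carry exact Poisson 95% intervals and ticks give the density in the 2 Mb on both sides. The 5 genes of chromosome 5 stand highest in control evDNA, at 57.0 to 120 per Mb, beside flanks of 46.8 to 88.0.

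Type II genes on other chromosomes had fewer peaks but included the highest folds in both vesicle lists. CDH8 on chromosome 16, a neuronal cadherin, had 3 FOXM1 peaks of fold 2.89 to 3.85, 1 LC3 peak of 3.48, 5 EBSS evDNA peaks of 2.28 to 4.20 and 12 control evDNA peaks of 2.44 to 4.81. Its control peak in an intron (chr16:61927546-61927893) had the highest fold of all member peaks in vesicle DNA, with 13 fragments and a −log10 q of 3.63. Its EBSS evDNA peak (chr16:61849310-61849720), also intronic, had the highest EBSS fold of the family, 4.20 with 12 fragments. The 2 lay in different places. CDH20 on chromosome 18 had 2 FOXM1 peaks, 4 in EBSS evDNA and 9 in control evDNA. Its intergenic FOXM1 peak of fold 4.33, with 8 fragments, was second to CDH1 among the member peaks of FOXM1. By position the CDH20 body held 31.5 control evDNA peaks per Mb (12.7 to 64.9), against 12.5 beside it, just below that interval. CDH11, a cadherin of bone and mesenchyme, had 3 EBSS evDNA and 3 control evDNA peaks, with highest folds of 3.14 and 4.24. CDH19 had 5 EBSS evDNA and 3 control evDNA peaks, with highest folds of 3.14 and 3.68. CDH7 had 2 control evDNA peaks, CDH22 had 1 LC3 and 1 control evDNA peak, and CDH5, the cadherin of endothelium, had 1 control evDNA peak of fold 2.06.

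Cadherins outside types I and II took a larger part of the LC3 peaks than of the other lists. CDH13, CDH17, CDH23 and CDH26 held 0 of 35 FOXM1, 8 of 19 LC3 (42.1%), 9 of 127 EBSS evDNA (7.09%) and 5 of 271 control evDNA peaks (1.85%). CDH23 had 5 LC3 peaks, 1 EBSS evDNA peak and 1 control evDNA peak. The LC3 peaks of CDH23 had folds of 2.56 to 3.57 and 8 to 11 fragments, 2 lay within 1 kb of a TSS and 2 in introns, and none passed q of 0.05. By position, the CDH23 body held 6 LC3 peaks, or 14.3 per Mb (5.25 to 31.2), against 5.25 per Mb beside it. CDH13, T-cadherin, which is anchored by a lipid, had 2 LC3 peaks of fold 2.87 and 3.01, 6 EBSS evDNA peaks of 2.24 to 2.61 and 3 control evDNA peaks of 3.02 to 3.19. No FOXM1 peak was given to CDH13, yet its body held 10 FOXM1 peaks, or 8.52 per Mb (4.09 to 15.7), against 0.75 per Mb beside it. EBSS evDNA was above its flank there too, with 11.9 per Mb (6.52 to 20.0) against 5.25. The LC3 and control evDNA flanks, 4.75 and 8.5 per Mb, lay inside the interval of the gene. The noncoding gene AC009142.1 was given 5 of the FOXM1 peaks in cadherin bodies. CDH17, the intestinal cadherin, had 1 intronic LC3 peak of fold 3.41. CDH26 had 2 EBSS evDNA peaks and 1 control evDNA peak.

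Non-clustered protocadherins had few peaks apart from PCDH15. That gene had 4 FOXM1 peaks, all intronic with folds of 2.41 to 3.85, 1 intronic LC3 peak of 3.38, 6 EBSS evDNA peaks of 2.45 to 3.07 and 8 control evDNA peaks of 2.44 to 3.83, all intronic. One control peak passed q of 0.05. Its body of 1.83 Mb held 6.03 FOXM1, 1.10 LC3, 4.93 EBSS evDNA and 9.31 control evDNA peaks per Mb, each with its flank value, 9.75, 1.75, 6.25 and 9.50, inside the interval. PCDH7 had 1 FOXM1 and 1 control evDNA peak, PCDH10 had 1 FOXM1 peak, PCDH1 had 1 LC3 peak, PCDH8 had 1 EBSS evDNA peak, PCDH17 had 1 EBSS evDNA and 2 control evDNA peaks, and PCDH12 and PCDH20 had 1 control evDNA peak each. PCDH9 and PCDH11X, both over 0.5 Mb, were named at no peak in any list. By position the PCDH9 body held 5 EBSS evDNA peaks, 5.39 per Mb (1.75 to 12.6), and 0 control evDNA peaks, which allows up to 3.98 per Mb, beside flanks of 3.00 and 3.50. The PCDH11X body held 0 peaks in every list, beside flanks of at most 1.25 per Mb. CDH16, CDH24, PCDH18 and PCDH19 also had no assigned peak. PCDH9-AS3, an antisense RNA gene in the PCDH9 locus, had 1 EBSS evDNA peak of fold 3.14.

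The alpha, beta and gamma protocadherin clusters lie on the long arm of chromosome 5 (chr5:140786140-141512975). Of their 53 protein-coding genes, 1 had a FOXM1 peak (1.89%; 11.5% of all genes), 1 an LC3 peak (1.89%; 14.3% of all genes), 8 an EBSS evDNA peak (15.1%; 20.0% of all genes) and 9 a control evDNA peak (17.0%; 27.1% of all genes), and 39 had none in any list. By position the clusters held 6 FOXM1, 2 LC3, 14 EBSS evDNA and 18 control evDNA peaks, or 8.25, 2.75, 19.3 and 24.8 per Mb. As point values these densities lay below those of the CDH18 body in FOXM1 and both vesicle lists. Except in LC3 they lay above those of chromosome 5 from 50 Mb onward. No intervals were computed for them, and with 6 FOXM1 and 2 LC3 peaks their order in those lists is not established. The clusters were given 3 FOXM1, 1 LC3, 9 EBSS evDNA and 11 control evDNA peaks, and none passed q of 0.05. Of all peaks 1.97%, 3.78%, 9.77% and 13.3% passed in the same order. With so few peaks the lack of a passing one says little about the clusters. In FOXM1, PCDHB17P had 2 peaks of fold 2.89 and PCDHGA7 had 1 of 3.85. In LC3, PCDHB1 had 1 of 2.71. In EBSS evDNA, PCDHB1 had 2 peaks, and PCDHA1, PCDHAC1, PCDHAC2, PCDHB2, PCDHB4, PCDHGB2 and PCDHGC3 had 1 each, with highest folds of 2.48 to 3.20. In control evDNA, PCDHB1 and PCDHB5 had 2 peaks each, and PCDHA8, PCDHA11, PCDHB3, PCDHB4, PCDHGA7, PCDHGA11 and PCDHGC3 had 1 each, with highest folds of 2.35 to 3.38. PCDHA11, PCDHB3, PCDHB5, PCDHGA11 and PCDHGC3 had a control peak within 1 kb of a TSS. Genes within a cluster are similar copies, so the placing of short reads among them is uncertain. The peaks given to CDH12P2 and CDH12P4, named as pseudogenes of CDH12, were all intergenic. CDH12P2 had 1 EBSS evDNA peak of fold 4.19 that passed q of 0.05, and CDH12P4 had 3 in EBSS evDNA and 1 in control evDNA.

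Of the 47 gene names, 4 had peaks in all 4 lists, CDH12, CDH2, CDH8 and PCDH15, and 23 had peaks in 1 list. The same shares over all gene names were not counted, so these numbers cannot be called low or high. Overlap of the peaks themselves, by at least 1 bp, was rare between ChIP and vesicle lists. Another list overlapped 2 of 35 FOXM1 member peaks (5.71%; 3.81% of all peaks), 1 of 19 LC3 peaks (5.26%; 5.97% of all peaks), 27 of 127 EBSS evDNA peaks (21.3%, 14.5% to 29.4%; 13.1% of all peaks) and 31 of 271 control evDNA peaks (11.4%, 7.91% to 15.8%; 7.66% of all peaks). FOXM1 and LC3 shared no member peak, where 1.38% of all FOXM1 peaks overlapped an LC3 peak. FOXM1 and control evDNA met in an intron of CDH8, at chr16:61781825-61782433 in FOXM1, with folds of 3.85 in FOXM1 and 4.18 in control evDNA over 359 shared bases. They met again in an intron of CDH12, at chr5:21895910-21896227, with folds of 2.41 and 3.23 over 154 bases. FOXM1 and EBSS evDNA shared no member peak, where 1.37% of all FOXM1 peaks overlapped an EBSS evDNA peak. With 35 FOXM1 member peaks, the lack of a shared one in these 2 pairs says little. The 1 LC3 peak that overlapped vesicle peaks lay 48490 bp before the nearest CDH12 TSS (chr5:22902112-22902415), where the folds were 3.41 in LC3, 2.13 in EBSS evDNA and 2.28 in control evDNA.

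Between the vesicle lists, 27 EBSS evDNA member peaks overlapped control peaks (21.3%; 12.1% of all EBSS peaks), and 29 control evDNA member peaks overlapped EBSS peaks (10.7%; 6.47% of all control peaks). On chromosome 5 lay 25 of the 27 and 27 of the 29. By gene the shared EBSS evDNA peaks were 10 of 34 at CDH18, 7 of 12 at CDH9, 4 of 14 at CDH12, 2 of 4 at CDH18-AS1, and 1 each at CDH2, CDH26, CDH12P4 and PCDHB4. The 27 shared EBSS evDNA peaks had a median fold of 2.65 and none passed q of 0.05, against 9.77% of all EBSS evDNA peaks. Of the 100 EBSS evDNA member peaks with no control overlap 3 passed (3%), with a median fold of 2.71. The control evDNA counterparts of the shared peaks had a median fold of 3.15 and 11 of 29 passed (37.9%). Of the 242 control member peaks with no EBSS overlap 44 passed (18.2%), with a median fold of 2.95, against 13.3% of all control peaks. One shared place lay within 1 kb of an internal TSS of CDH12 (chr5:22213427-22213740 in EBSS evDNA), with 8 fragments and a fold of 2.60 in EBSS evDNA and 11 fragments and a fold of 4.18 in control evDNA.

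The EBSS evDNA list was shorter than the control evDNA list, with 0.531 as many peaks, and for cadherin peaks the ratio was 0.469 (127 against 271). The ratio differed by chromosome. On chromosome 5 the members stood at 0.383 (82 EBSS evDNA peaks, 214 control evDNA peaks), against 0.413 over all peaks there. On other chromosomes they stood at 0.789 (45 and 57), against 0.552 over all peaks. Of the 13 gene names with at least 5 peaks in both lists together, 6 lay above the ratio of the whole lists and 7 below. CDH9 had 12 EBSS evDNA and 49 control evDNA peaks, a ratio of 0.245, and CDH12 had 14 and 55, a ratio of 0.255. CDH4, with 5 and 1, CDH13, with 6 and 3, and CDH19, with 5 and 3, had more EBSS evDNA than control evDNA peaks. These are peaks given to the gene name. By position the bodies held 8 and 7 for CDH4, 14 and 9 for CDH13, and 1 and 0 for CDH19. With 1 library each, these ratios cannot be separated from the difference between any 2 preparations.

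**Figure D5:**
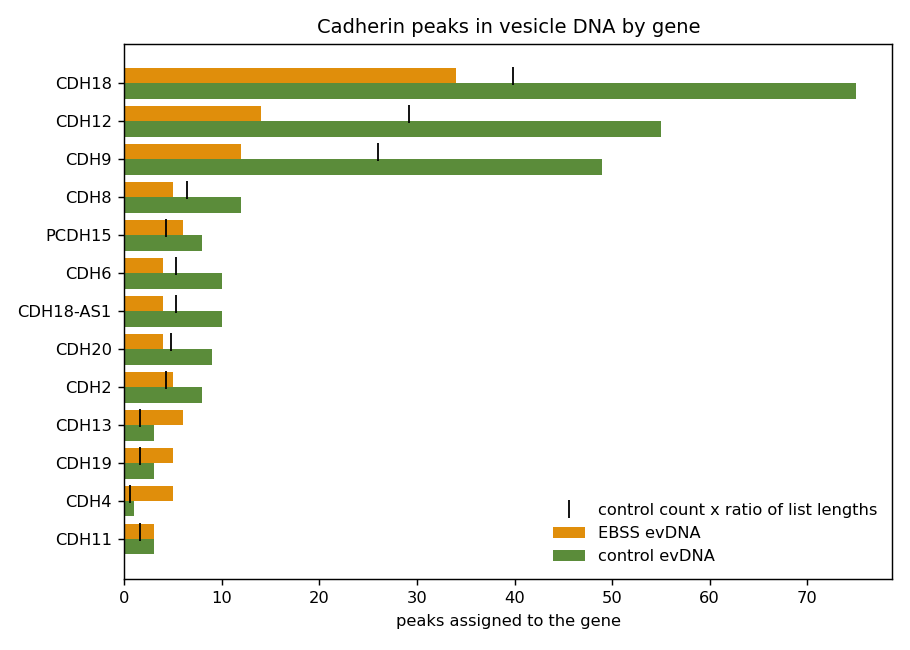
Peaks (horizontal axis, number) given to each cadherin gene name with at least 5 peaks in vesicle DNA, EBSS evDNA above control evDNA; ticks mark the control count times the ratio of list lengths, 0.531. CDH12 and CDH9 end left of their ticks, and CDH13, CDH19 and CDH4 end right of them.

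Genes that work with cadherins were counted the same way. Of 8 catenin and linker genes, 4 had a FOXM1 peak, 2 an LC3 peak, 5 an EBSS evDNA peak and 6 a control evDNA peak. Over all protein-coding genes 11.5%, 14.3%, 20.0% and 27.1% had one in the same order, and these shares also stand behind the lists that follow. CTNND2, delta-catenin of neurons, had 12 FOXM1, 6 LC3, 18 EBSS evDNA and 59 control evDNA peaks, of which 8 control peaks passed q of 0.05 (13.6%; 13.3% of all control peaks). CTNNB1, which encodes beta-catenin, had a FOXM1 promoter peak of fold 5.29 that passed q of 0.05 and a control evDNA promoter peak of 2.44 that did not. Among 19 other genes of the cadherin superfamily (FAT, Dachsous, CELSR, calsyntenin and desmosomal cadherin genes), 3 had a FOXM1 peak (15.8%), 4 an LC3 peak (21.1%), 6 an EBSS evDNA peak (31.6%) and 11 a control evDNA peak (57.9%). One peak in all passed q of 0.05, a control peak of the desmosomal gene DSC1, out of 16 control peaks at these genes (6.25%; 13.3% of all control peaks). Of 6 regulators of CDH1 transcription, SNAI2, ZEB1 and ZEB2 had FOXM1 peaks, ZEB1 and ZEB2 had LC3 and EBSS evDNA peaks and SNAI1 had a control evDNA peak, with folds of 2.44 to 3.85, and none passed q of 0.05. Of the epithelial markers, EPCAM had 1 LC3 promoter peak of fold 3.21, KRT8 had 1 intronic control evDNA peak of 2.16, CDH1 had its FOXM1 peak and KRT18 had none.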

How the data were processed

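The data were 4 deposited peak lists, 1 library per group, from an antibody to FOXM1, an antibody to LC3, EBSS evDNA and control evDNA. The labelled input library was not analysed here. Per the submitters' processing notes, the build was hg38, peaks were called with MACS3 3.0.0a6 and annotated by ChIPseeker, and BWA, fastp 0.20.0 and FastQC 0.11.8 were also used. The aligner's settings, and which control the peak caller was given, are not given in the sources used here.

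Per the file headers, peaks were called for each library and annotated with the nearest gene, a class and the distance to a TSS. For each peak the authors deposited a fold, a linear ratio over the local background, and a −log10 p-value and −log10 q-value. A score deposited by the authors was not used. The p and q columns of EBSS evDNA have damaged headings and were identified by position. The lists reach down to a −log10 p of 2.30 with no limit on q. They are the authors' own numbers for each peak and serve to describe or filter peaks within a list.

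Where an interval had several summits, the strongest was kept, which took the member entries from 36, 19, 127 and 273 (FOXM1, LC3, EBSS evDNA, control evDNA) to 35, 19, 127 and 271. Fragments at the summit and the local background were solved from the fold and the Poisson −log10 p for a whole number of fragments, which matched within 0.01 in at least 99.97% of intervals; the step was tested on simulated data. Relative depth is the lowest background (its 1% quantile) over the smallest peak width. A less deep library can show fewer weak peaks, and how far depth set the counts here was not tested. All 47 gene names were matched to RefSeq (GRCh38.p14). Genes were grouped into type I and type II cadherins, other cadherins, and delta-1, delta-2, other and clustered protocadherins. Where 95% intervals are given, those of shares are exact Clopper-Pearson and those of densities exact Poisson intervals. They cover counting error only. A peak was called shared at 1 bp of overlap or more.

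Genes were named by a rule: CDH1 and CDH2; the 5 genes with most peaks and the 5 peaks of highest fold in each list; genes with promoter peaks in several lists, with a peak shared between lists or with q of at most 0.05; clustered protocadherins with a peak; and members over 0.5 Mb without one. Some genes outside the rule were also named, with their values seen. The members, gene lists and comparisons were chosen with earlier results of these data known. The alternatives were no merging, stricter p and q, protein-coding names alone, counts by gene body, wider promoters, a larger overlap, and leaving out chromosome 5. Python 3.11.15, numpy 2.4.6, pandas 2.3.3, scipy 1.17.1 and matplotlib 3.10.9 were used.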

Additional observations from a re-analysis of the deposited data

How the results depend on the processing

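No paired analysis was possible because each group had 1 library. Of 103 alternative values for 37 results, 63 stayed within the limits set for a change and 40 moved. Values follow in the order FOXM1, LC3, EBSS evDNA, control evDNA where all 4 moved. With q of at most 0.05 the member peaks numbered 1, 0, 3 and 55, or 0.452%, 0%, 0.199% and 1.43% of the peaks so filtered. Counted by overlap with a member gene body, FOXM1 had 61 member peaks (0.545% of its list). Without chromosome 5 the member share was 0.129% in FOXM1, 0.331% in EBSS evDNA and 0.231% in control evDNA, and the order of the vesicle lists turned round. Without chromosome 5, and also with q of at most 0.05, the separation of both vesicle lists from both ChIP lists ended. With a −log10 p of at least 3, FOXM1 had 22 member peaks. The share within 3 kb of a TSS was 52.6% in LC3 and 10.2% in EBSS evDNA. With a −log10 q of at least 2, 20 control evDNA peaks passed. Member peaks that overlapped another list were 1, 0, 17 and 19 with a −log10 p of at least 3 in both lists, and 1 in FOXM1 under the larger overlap (0.5 of the shorter peak). Member bodies held 3.27 (FOXM1), 7.74 (EBSS evDNA) and 20.1 (control evDNA) peaks per Mb at the stricter p, and 3.78, 6.27 and 7.69 without chromosome 5. All protein-coding bodies held 2.39, 2.46, 3.46 and 7.02 per Mb at the stricter p, 4.81 (EBSS evDNA) and 8.68 (control evDNA) without chromosome 5, and 3.27 in FOXM1 with 5 kb added on both sides. By position the protocadherin clusters held 6, 2, 14 and 18 peaks. The highest control evDNA fold of CDH2 was 3.48 within the gene body and 5 kb before it. Stricter p and q leave fewer peaks by construction; the cause of the other shifts was not tested. Weak peaks of 4 to 8 fragments limit what FOXM1 ChIP can show at single genes.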
